A study of Homo sapiens with 12 samples.

Results

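The transition described here is the differentiation of human embryonic stem cells that lack GATA2 into hemogenic endothelial cells. It was followed in 4 RNA-Seq libraries, 2 from undifferentiated H1-GATA2-/- hESCs and 2 from H1-GATA2-/- HEs, out of the 10 libraries of the series that were analysed here. The parental cells, H1, are a widely used established line of hESCs. In the H1-GATA2-/- line a neomycin resistance cassette driven by the PGK promoter had been placed into exon 3 of both GATA2 alleles with the help of TALENs, and drug-resistant colonies were picked and grown into the line used here. It is 1 line, so an effect of its clonal history and an effect of the genotype cannot be told apart. Both groups carried this disruption. The hESCs were undifferentiated cultures, and their column names carried the numbers 38 and 58 after the letter P. The HEs carried CD34 and CD31 and lacked CD43 on their surface, and were collected by sorting after 8 days on OP9, a mouse bone marrow stromal line that induces blood differentiation. The remaining 6 libraries were H1 HEs with intact GATA2 at day 8, and HPCs (the CD34+CD43+ cells) of both genotypes at day 9. Libraries of H1 hESCs with intact GATA2 were not analysed here, so the same transition could not be measured in wild-type cells. Unless another group is named, hESC and HE stand below for the H1-GATA2-/- cells.

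Hemogenic endothelium is endothelium that gives rise to blood cells by the endothelial-to-hematopoietic transition (EHT). It arises from mesoderm, expresses the vascular program of junction proteins, VEGF receptors and ETS and SOX factors, and co-expresses a set of blood transcription factors, among them TAL1, LMO2, RUNX1 and GATA2, before the endothelial program is lost in the emerging blood cell. Human embryonic stem cells grow as a tight epithelium whose state depends on OCT4 (POU5F1), SOX2 and NANOG. The path from one to the other therefore crosses from a pluripotent epithelium to a vascular cell that is close to blood.

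Genes were kept if they reached a TPM (the share of a library's transcripts, corrected for transcript length and scaled to a fixed sum) of at least 1 in 2 or more of the 4 libraries, which left 17920 of 56266 genes. Levels were compared as log2(TPM + 1) with limma, with all 10 libraries in 1 fit. A gene is said to have risen or fallen when the Benjamini-Hochberg adjusted p of HEs against hESCs was under 0.05. All differences are on this log2 scale, which understates the change of low genes. Each value of TPM is given for replicate 1 and then replicate 2. Where groups are said to overlap or not, this describes the printed values and adds no support to a call. The share of all tested genes without overlap is not given here. The number of reads behind a TPM is unknown, so no interval for counting error was computed. Over the 17920 genes, Pearson's r across genes was 0.956 between the hESC libraries, 0.958 between the HE libraries and 0.741 to 0.751 between an hESC and an HE library. The replicates differed by more than 1 on the log2 scale at 1717 genes in hESCs and at 1756 in HEs. If the numbers 38 and 58 in the hESC column names are passage numbers, these 2 libraries came from separate cultures. Nothing in the labels says so of the HE libraries, whose spread may be technical. The p-values measure only the spread between libraries within the groups of the fit, which include H1 HEs and HPCs.

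The defining markers matched the labels of both groups. POU5F1, NANOG, SOX2, LIN28A and TDGF1 were all expressed in both hESC libraries, and CDH5, KDR and CD34 were all at or above 608 TPM in both HE libraries. SPN, which encodes CD43 and should be low in sorted HEs, was at 7.48 and 1.76 TPM in HEs against 97.98 and 106 in HPCs. For HEs against hESCs SPN did not pass the threshold, but it did after quantile normalization (log2 difference 1.37, adjusted p = 0.034 from limma). Without HE replicate 2 its log2 difference was 1.86. PECAM1, which encodes CD31, was not analysed here. Of the blood markers, ITGA2B was at 41.2 and 21.5 TPM in HEs, and PTPRC (CD45) was listed at 0 in both. The neural and endoderm markers PAX6, SOX1 and FOXA2 were below 1 TPM in each of the 4 libraries. AFP, also an endoderm marker, was above 1 TPM in both hESC libraries and in HE replicate 2, with its values given below. The 10 listed neural and endoderm markers summed to 131 and 92.4 TPM in hESCs and 173 and 141 TPM in HEs. Most of this level lay in members not named here, so the list as a whole was not silent in either group. The targeted gene GATA2 had a level of 2.05 and 5.54 TPM in hESCs and 111 and 94.1 TPM in HEs. It thus rose during the differentiation of the knockout cells (log2 difference 4.53, SE 0.35, adjusted p = 2.1e-05), but TPM per gene counts any transcript of the disrupted locus and does not show whether a functional mRNA was made. By qRT-PCR, the authors reported that full-length GATA2 mRNA was absent from the knockout cells on OP9, and they allowed for an aberrant mRNA. GATA2 was at 107 and 78.03 TPM in H1 HEs, 112 and 83.8 TPM in H1-GATA2-/- HPCs and 290.1 and 204 TPM in H1 HPCs, so the knockout HEs overlapped the H1 HEs and the knockout HPCs lay below the H1 HPCs.

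Of the 17920 genes tested, 6981 (39.0%) differed between HEs and hESCs, of which 3192 (17.8%) rose and 3789 (21.1%) fell. Without hESC replicate 1 the count was 4594. These shares are the background against which each group of genes below is read. The median difference over all tested genes was −0.07. Most changes were larger than that: 2639 genes rose and 2991 fell by at least 1 on the log2 scale, and 547 rose and 523 fell by at least 3. At the same time, 12858 genes had at least 1 TPM in all 4 libraries. Another 1497 were at or above 1 TPM in both hESC libraries and below it in both HE libraries, and 1000 showed the opposite pattern. The genes that rose took up 9.81% and 9.82% of all TPM in hESCs and 29.1% and 28.5% in HEs. Those that fell went from 33.1% and 31.6% to 13.6% and 13.3%. Among protein-coding genes 19.7% of 13825 rose and 22.7% fell, and among long non-coding RNAs 11.3% of 2036 rose and 17.8% fell.

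**Figure D1:**
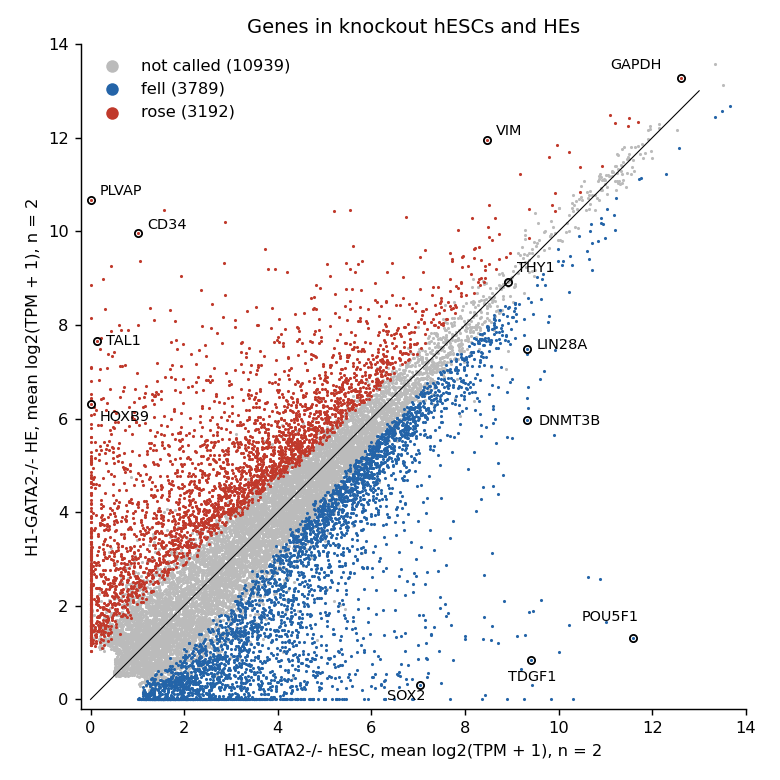
Mean log2(TPM + 1) of the 2 hESC libraries (x axis) and the 2 HE libraries (y axis) for the 17920 genes tested, 1 point per gene, with genes that rose in red, genes that fell in blue and the others in grey; the line marks equal levels. PLVAP lies at the left edge at 1815 and 1475 TPM in HEs and POU5F1 at the lower right at 2.09 and 1.02 TPM, while THY1 lies on the line.

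Genes were grouped in lists by function. For each list the number of listed genes and of those that passed the TPM filter is given, since a gene that passed through 1 group alone had to differ, and its median difference is over all of its genes in the files.

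**Figure D2:**
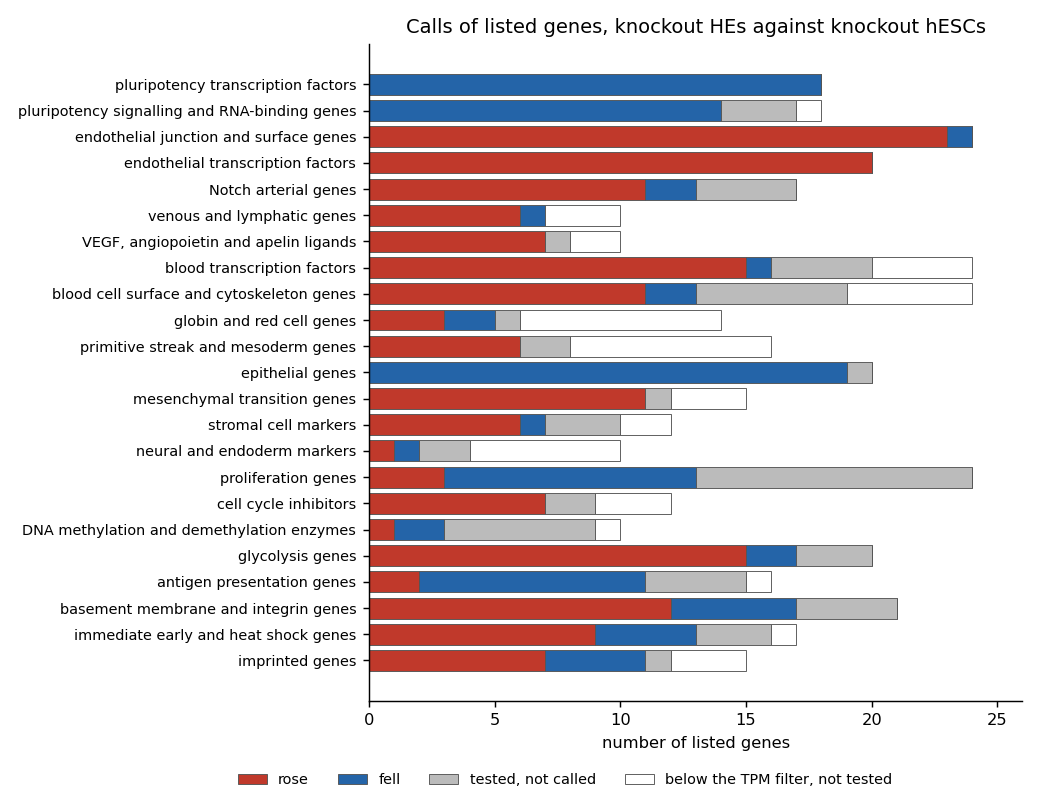
Number of listed genes (x axis) that rose, fell, were tested without passing the threshold or were below the TPM filter in HEs against hESCs, for 23 lists of genes (y axis). The 18 pluripotency transcription factors all fell and the 20 endothelial transcription factors all rose, while lists such as proliferation or imprinted genes held both directions.

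The genes of the pluripotency network fell as a whole. Each of the 18 listed pluripotency transcription factors passed the filter, 7 of them through the hESC libraries alone, and 18 fell. Their median difference was −4.59 (−4.59 over the 14 above 0 in both groups), beside −0.07 over all tested genes. POU5F1, which encodes the pluripotency factor OCT4, had 3332 and 2855 TPM in hESCs and 2.09 and 1.02 TPM in HEs (log2 difference −10.27, SE 0.37, adjusted p = 4.2e-07). SOX2, its partner on DNA, went from 128 and 132 TPM to 0.35 and 0.12 TPM (log2 difference −6.73, SE 0.34, adjusted p = 2.5e-06). NANOG was at 86.3 and 62.01 TPM in hESCs and at 0 and 0.56 TPM in HEs (log2 difference −5.89, SE 0.34, adjusted p = 4.9e-06). In none of these genes did the groups overlap. PRDM14, OTX2, FOXD3 and UTF1 were listed at 0 in both HE libraries, and their adjusted p-values from limma were 2.6e-05, 8.6e-06, 1.2e-05 and 0.00056. Some factors fell but stayed well above 1 TPM in HEs. SALL4 kept 18.6 and 8.79 TPM of 121 and 84 TPM, DPPA4 kept 47.7 and 46.2 TPM of 515 and 502 TPM, ZSCAN10 kept 17.96 and 19.4 TPM of 173 and 186 TPM, and ETV4, an ETS factor, kept 42.3 and 46.9 TPM of 126 and 102 TPM (log2 difference −1.32, SE 0.23, adjusted p = 0.0018). The hESC libraries differed from each other for some genes of the list: ZIC2 was at 29.6 and 85.6 TPM and UTF1 at 22.9 and 5.72 TPM.

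Among the 18 listed signalling and RNA-binding genes of the pluripotent state, 17 passed the filter (6 through hESCs alone), 14 fell and none rose (median −3.67). TDGF1, a co-receptor of NODAL also known as CRIPTO, fell from 679 and 683 TPM to 0.74 and 0.84 TPM (log2 difference −8.57, SE 0.47, adjusted p = 3.4e-06). SFRP2, a secreted WNT modulator, fell from 332 and 357 TPM to 0 and 0.15 TPM (log2 difference −8.33, SE 0.35, adjusted p = 9.6e-07), and L1TD1, an RNA-binding protein of the pluripotent cell, from 386 and 284 TPM to 1.95 and 1.02 TPM (log2 difference −7.09, SE 0.34, adjusted p = 1.9e-06). The growth factor gene FGF2 fell from 35.8 and 31.5 TPM to 0.57 and 1.17 TPM. The 3 tested genes that did not pass the threshold were LIN28B, CD9 and THY1. LIN28B, which blocks maturation of let-7 microRNAs, had 41.6 and 33.6 TPM in hESCs and 25.7 and 21.1 TPM in HEs (log2 difference −0.66, SE 0.25, adjusted p = 0.062). Its paralog LIN28A fell, but 207 and 154 TPM of 611 and 665 TPM remained (log2 difference −1.83, SE 0.27, adjusted p = 0.00082). THY1 (CD90), a surface marker both of hESCs and of some endothelial and blood progenitors, was at 488 and 473 TPM in hESCs and 442 and 532 TPM in HEs (log2 difference 0.01, SE 0.43, adjusted p = 0.99). The groups overlapped for THY1 and CD9, and for LIN28B both HE libraries lay below both hESC libraries. LIN28B (adjusted p = 0.02 after quantile normalization and 0.0207 with library medians set equal) passed the threshold under another setting.

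**Figure D3:**
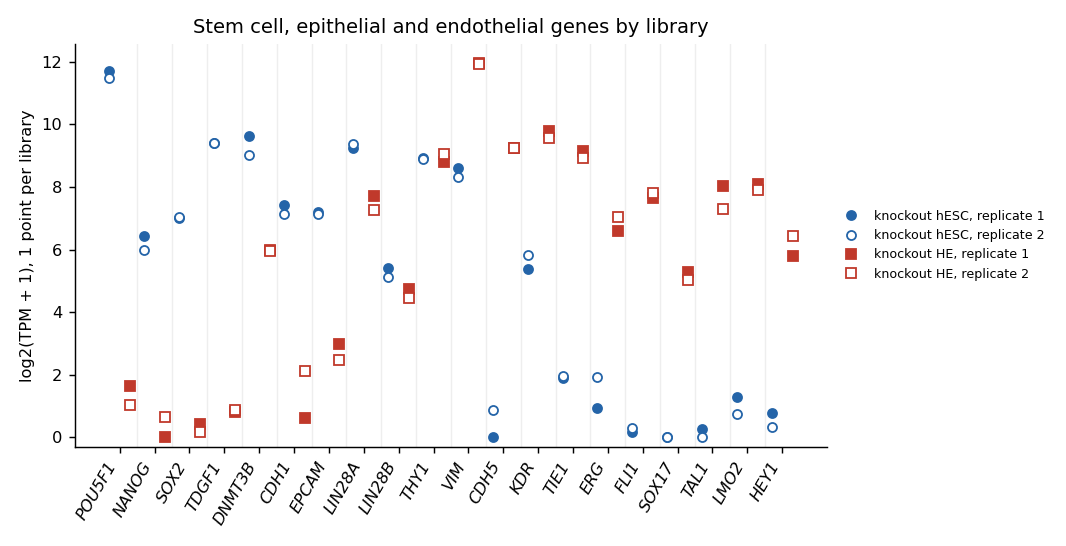
log2(TPM + 1) of 20 genes (x axis) in each of the 4 libraries, hESC as blue circles and HE as red squares, filled for replicate 1 and open for replicate 2. POU5F1 to EPCAM lie higher in hESCs and VIM to HEY1 higher in HEs, with LIN28A lower in HEs by 1.83 and THY1 at about the same level in both.

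Some of the largest falls were of long non-coding RNAs. Apart from H19, which is in a list, these were chosen after their values were seen, because they lay outside the rule for named genes, which covers protein-coding genes. ESRG, a transcript abundant in human pluripotent cells, went from 1844 and 2304 TPM to 1.60 and 2.80 TPM (log2 difference −9.36, SE 0.39, adjusted p = 9.6e-07). RP11-148B6.1 had 1113 and 1455 TPM in hESCs and was listed at 0 in both HE libraries (adjusted p = 6.7e-07 from limma). LINC00678 had 609.8 and 783 TPM and 0.55 and 0 TPM (log2 difference −9.12, SE 0.45, adjusted p = 2.1e-06), and LINC00458 had 384 and 444 TPM and 1.32 and 1.28 TPM (log2 difference −7.49, SE 0.48, adjusted p = 7.9e-06). At these levels, the transcripts were among the more abundant RNAs of the undifferentiated cells. Among the long non-coding RNAs that rose, H19 went from 10.8 and 3.47 TPM to 326 and 480.1 TPM (log2 difference 5.77, SE 0.45, adjusted p = 2e-05), and HOXB-AS3, antisense to HOXB genes, was listed at 0 in hESCs and had 27.2 and 24.8 TPM in HEs (adjusted p = 0.00074 from limma). Whether the counting used the strand is not given in the sources used here, so reads of HOXB-AS3 and of the HOXB genes it overlaps cannot be told apart.

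Epithelial genes fell along with those of pluripotency. Of 20 listed epithelial genes, 20 passed the filter (6 through hESCs alone), 19 fell and none rose, with a median of −4.12. CDH1, the epithelial cadherin of adherens junctions, fell from 171 and 139 TPM to 0.53 and 3.36 TPM (log2 difference −5.91, SE 0.54, adjusted p = 4.9e-05). EPCAM, an epithelial adhesion molecule, fell from 147 and 141 TPM to 6.83 and 4.51 TPM (log2 difference −4.46, SE 0.40, adjusted p = 4.8e-05), and ESRP1, a splicing factor of epithelial cells, from 75.96 and 76.5 TPM to 0.24 and 0.17 TPM (log2 difference −6.00, SE 0.36, adjusted p = 5.8e-06). CRB3 and CLDN3, at 17.9 and 18.7 TPM and 5.67 and 12.8 TPM in hESCs, were listed at 0 in both HE libraries. CLDN6, a claudin of tight junctions, fell from 911 and 679.5 TPM to 3.24 and 3.50 TPM (log2 difference −7.49, SE 0.45, adjusted p = 5.8e-06). Simple-epithelium keratins fell far less: KRT8 from 426 and 416 TPM to 240.2 and 176 TPM (log2 difference −1.03, SE 0.17, adjusted p = 0.0016), and KRT18 from 461 and 470.02 TPM to 241 and 191 TPM (log2 difference −1.11, SE 0.16, adjusted p = 0.00078). CLDN7, with 81.7 and 83.5 TPM in hESCs and 64 and 57.9 TPM in HEs, did not pass the threshold (log2 difference −0.43, SE 0.23, adjusted p = 0.17). Across the claudin family, 1 of 23 genes rose and 9 fell, with 12 past the filter (1 through HEs alone and 4 through hESCs alone). The one that rose was CLDN5, the claudin of endothelial tight junctions, from 0.41 and 0.99 TPM to 6.72 and 25.98 TPM (log2 difference 3.11, SE 0.59, adjusted p = 0.0033). CLDN5 (adjusted p = 0.0505 without hESC replicate 1) lost its call under another setting.

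Of 15 genes tied to epithelial-to-mesenchymal transition, 12 passed the filter (3 through HEs alone), 11 rose and none fell (median 2.85). VIM, the intermediate filament of mesenchymal and endothelial cells, was already at 389.5 and 319 TPM in hESCs and reached 4025 and 3897 TPM in HEs (log2 difference 3.49, SE 0.20, adjusted p = 4.2e-06). Repressors of CDH1 transcription were among those that rose: ZEB2 from 0.14 and 0 TPM to 47.8 and 40.6 TPM (log2 difference 5.40, SE 0.28, adjusted p = 2.8e-06), ZEB1 from 0 and 0.06 TPM to 24.3 and 26.4 TPM (log2 difference 4.68, SE 0.42, adjusted p = 4.9e-05), and SNAI1 from 4.94 and 5.98 TPM to 35.3 and 30.4 TPM (log2 difference 2.39, SE 0.25, adjusted p = 0.00012). TGFB1, a ligand of the TGF-beta pathway, went from 7.58 and 4.91 TPM to 359 and 231 TPM (log2 difference 5.34, SE 0.25, adjusted p = 1.5e-06), and FN1 (fibronectin) from 98.5 and 74.6 TPM to 568 and 719 TPM (log2 difference 2.88, SE 0.31, adjusted p = 0.00013). In each of these genes both HE libraries lay above both hESC libraries. CDH2 (N-cadherin), with 30.3 and 17.3 TPM in hESCs and 13.7 and 10.6 TPM in HEs, did not pass the threshold (log2 difference −0.87, SE 0.40, adjusted p = 0.12), and TWIST1 and TWIST2 stayed below the filter.

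Nearly all of the endothelial genes rose. Of 24 listed endothelial junction and surface genes, 24 passed the filter, 10 of them through the HE libraries alone. Of these 23 rose and 1 fell, with a median of 5.61 (5.36 over the 21 above 0 in both groups). PLVAP, a component of endothelial fenestrae diaphragms, was listed at 0 in both hESC libraries and had 1815 and 1475 TPM in HEs (adjusted p = 4.9e-08 from limma). CD34, the surface protein by which the HEs were sorted, went from 1.04 and 1.01 TPM to 1059.6 and 925 TPM (log2 difference 8.93, SE 0.22, adjusted p = 6.9e-08), a rise that the sort itself selects for. CDH5 (VE-cadherin), the cadherin of endothelial junctions, had 0 and 0.81 TPM in hESCs and 614 and 608 TPM in HEs (log2 difference 8.83, SE 0.38, adjusted p = 9.7e-07), and ESAM, an adhesion molecule of the same junctions, had 1.70 and 0.62 TPM and 745 and 585 TPM (log2 difference 8.30, SE 0.24, adjusted p = 1.6e-07). TIE1, an endothelial receptor tyrosine kinase, rose from 2.72 and 2.92 TPM to 571 and 487 TPM (log2 difference 7.11, SE 0.14, adjusted p = 2.7e-08). No library of one group reached a library of the other in any of these genes. KDR, the main VEGF receptor, and EGFL7 were not off in hESCs: KDR rose from 40.5 and 55.8 TPM to 879 and 759 TPM (log2 difference 4.07, SE 0.33, adjusted p = 2.5e-05), and EGFL7, a secreted endothelial factor, from 35.9 and 36.1 TPM to 1439 and 1315 TPM (log2 difference 5.22, SE 0.15, adjusted p = 1.6e-07). The one listed gene that fell was JAM2, a junctional adhesion molecule, from 6.84 and 5.81 TPM to 1.70 and 0.94 TPM (log2 difference −1.67, SE 0.42, adjusted p = 0.012). JAM2 (adjusted p = 0.149 with a pseudocount of 0.1, 0.0804 without the TPM filter, 0.0694 without hESC replicate 1 and 0.0766 without HE replicate 2) lost its call under another setting.

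Each of the 20 listed endothelial transcription factors passed the filter, 11 of them through HEs alone, and 20 rose (median 4.31, 4.31 over the 16 above 0 in both groups). Among the ETS factors, FLI1 went from 0.11 and 0.22 TPM to 200.4 and 222 TPM (log2 difference 7.51, SE 0.17, adjusted p = 4.7e-08) and ERG from 0.90 and 2.76 TPM to 95.01 and 129 TPM (log2 difference 5.39, SE 0.32, adjusted p = 5.6e-06), while ETS1 started from 31.2 and 23.1 TPM and reached 237 and 229 TPM (log2 difference 3.07, SE 0.23, adjusted p = 1.7e-05). ETV2, the ETS factor that starts the endothelial program in mesoderm, was low at this stage, with 0.81 and 0.38 TPM in hESCs and 7.47 and 3.65 TPM in HEs (log2 difference 1.99, SE 0.37, adjusted p = 0.003). The SOXF factors SOX17 and SOX18 were listed at 0 in both hESC libraries and had 38.3 and 31.7 TPM and 74.2 and 59.04 TPM in HEs (adjusted p = 2.5e-05 and 4.4e-06 from limma). SOX7 rose from 0.79 and 0.32 TPM to 158 and 120.1 TPM (log2 difference 6.49, SE 0.55, adjusted p = 3.2e-05). HHEX, a homeobox factor of early endothelium and liver, rose from 0.20 and 0.35 TPM to 137 and 132 TPM (log2 difference 6.73, SE 0.21, adjusted p = 2.2e-07), and KLF2, a factor induced by blood flow, from 0.18 and 0.17 TPM to 109 and 66.5 TPM (log2 difference 6.19, SE 0.25, adjusted p = 7.9e-07). Across the SOX family, 5 of 19 genes rose and 6 fell, with 15 past the filter (4 through HEs alone and 4 through hESCs alone). Beside SOX2, the related SOX3 and SOX21 fell from 12.4 and 19.3 TPM and 7.42 and 6.72 TPM to listed values of 0 in both HE libraries. The family was picked after its values were seen. SOX genes that rose numbered 3 without hESC replicate 1 and 3 without hESC replicate 2.

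Promoter windows of 3 genes that rose and 2 that fell are shown so that the letters before their starts can be read beside these values. They were picked from genes with a window that held at least 1 of the words searched, and are not a sample of the genes that rose or fell. PLVAP had the largest rise of the tested protein-coding genes, EMCN (endomucin, a surface sialomucin of endothelium) went from 0 and 0.70 TPM to 153 and 179 TPM, and LYL1, a blood transcription factor, from 1.42 and 0.15 TPM to 162 and 121 TPM. NANOG and SOX2 fell as given above. Each window runs from 250 bases before to 50 bases after a start site in RefSeq (GRCh38.p14), 5′ to 3′ on the strand of the gene. The positions are chr19:17377293-17377592 on the minus strand, chr4:100517973-100518272 on the minus strand, chr19:13102809-13103108 on the minus strand, chr12:7789152-7789451 on the plus strand and chr3:181711675-181711974 on the plus strand. Capitals mark the GATA words AGATAA and TGATAA, the ETS word AGGAAG and ATGCAAA, a part of the octamer bound by OCT4, each searched on both strands, so that TTATCA and TTTGCAT are matches read from the other strand.
PLVAP: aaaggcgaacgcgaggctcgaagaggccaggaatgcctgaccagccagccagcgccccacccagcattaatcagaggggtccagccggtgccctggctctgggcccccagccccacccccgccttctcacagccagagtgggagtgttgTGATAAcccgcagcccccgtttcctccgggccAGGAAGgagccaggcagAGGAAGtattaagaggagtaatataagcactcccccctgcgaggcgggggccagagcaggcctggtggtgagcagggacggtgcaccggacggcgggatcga
EMCN: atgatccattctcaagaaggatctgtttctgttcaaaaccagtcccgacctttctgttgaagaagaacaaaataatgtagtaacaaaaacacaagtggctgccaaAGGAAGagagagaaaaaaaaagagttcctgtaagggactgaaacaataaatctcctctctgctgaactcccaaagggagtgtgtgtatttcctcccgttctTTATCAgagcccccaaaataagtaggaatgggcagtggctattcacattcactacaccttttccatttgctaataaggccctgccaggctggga
LYL1: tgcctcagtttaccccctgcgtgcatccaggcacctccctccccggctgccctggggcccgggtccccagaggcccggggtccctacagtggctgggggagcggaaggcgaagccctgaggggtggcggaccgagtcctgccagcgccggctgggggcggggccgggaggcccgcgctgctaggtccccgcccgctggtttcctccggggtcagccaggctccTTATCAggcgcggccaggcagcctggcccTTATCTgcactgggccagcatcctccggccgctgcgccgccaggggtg
NANOG: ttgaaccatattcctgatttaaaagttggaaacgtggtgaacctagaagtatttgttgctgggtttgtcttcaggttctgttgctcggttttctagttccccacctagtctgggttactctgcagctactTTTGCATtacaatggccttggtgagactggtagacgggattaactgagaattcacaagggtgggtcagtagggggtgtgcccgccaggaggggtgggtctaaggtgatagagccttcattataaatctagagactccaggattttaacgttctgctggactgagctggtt
SOX2: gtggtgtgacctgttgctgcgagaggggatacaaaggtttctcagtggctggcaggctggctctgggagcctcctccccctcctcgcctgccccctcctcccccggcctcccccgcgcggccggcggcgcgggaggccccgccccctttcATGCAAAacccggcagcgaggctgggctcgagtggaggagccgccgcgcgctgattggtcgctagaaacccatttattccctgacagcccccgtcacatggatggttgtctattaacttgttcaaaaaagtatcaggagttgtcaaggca

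The PLVAP window held 1 GATA word and 2 ETS words, that of EMCN held 1 of each, and that of LYL1 held 2 GATA words. The windows of NANOG and SOX2 held 1 ATGCAAA match each and neither a GATA nor an ETS word. Over all 34943 RefSeq windows outside chromosome 8, 16.3% held at least 1 GATA word, 33.7% the ETS word and 4.47% ATGCAAA. Windows were found for 11191 of 13342 tested protein-coding genes on the other nuclear chromosomes. AGGAAG was present in 37.6% of those that rose, 30.7% of those that fell and 32.0% of the rest. In the same order, a GATA word was present in 9.59%, 7.52% and 8.19%, and ATGCAAA in 2.63%, 3.66% and 2.75%. Each gene shown that rose held a GATA word, and each that fell held ATGCAAA. By these shares the picked windows are not typical, so no link between a word and a direction can be read from them. For the genes that rose or fell by at least 3, only 74.0% and 73.4% had a window, which is too few for such a share. A match of letters is a description of the window, and binding was not measured.

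Arterial genes of the Notch pathway, in which a ligand on one cell triggers cleavage of a receptor on its neighbour and so frees a transcriptional activator, rose in part. Of 17 listed genes, 17 passed the filter (3 through HEs alone), 11 rose, 2 fell and 4 did not pass the threshold (median 2.93). The receptors went in opposite directions: NOTCH1 rose from 14.97 and 17.9 TPM to 90.7 and 82.6 TPM (log2 difference 2.33, SE 0.26, adjusted p = 0.00017) and NOTCH4, which is largely endothelial, from 3.50 and 2.80 TPM to 33.02 and 71.99 TPM (log2 difference 3.59, SE 0.43, adjusted p = 0.00024), while NOTCH2 fell from 18.7 and 15.1 TPM to 4.07 and 5.18 TPM (log2 difference −1.67, SE 0.37, adjusted p = 0.0067) and NOTCH3 from 69.4 and 43.9 TPM to 13.1 and 19.9 TPM (log2 difference −1.71, SE 0.43, adjusted p = 0.012). The arterial ligand DLL4 rose from 0.22 and 0.10 TPM to 25.2 and 68.5 TPM (log2 difference 5.20, SE 0.49, adjusted p = 6.1e-05) and JAG2 from 4.91 and 3.62 TPM to 72.6 and 74.6 TPM, whereas JAG1, at 8.46 and 9.97 TPM and 21.9 and 16.5 TPM, did not pass (log2 difference 0.98, SE 0.36, adjusted p = 0.062). Of the targets, HEY1 rose from 0.71 and 0.26 TPM to 53.99 and 85.9 TPM (log2 difference 5.56, SE 0.35, adjusted p = 7.1e-06) and HES1 from 9.64 and 9.11 TPM to 74.5 and 98.1 TPM (log2 difference 3.06, SE 0.35, adjusted p = 0.00019). EFNB2, the arterial ephrin, rose from 5.29 and 4.61 TPM to 32.05 and 61.3 TPM. Several of these genes differed between the HE libraries: DLL4, NOTCH4, EFNB2, the gap junction gene GJA4 (57.2 and 145 TPM) and CLDN5 were all higher in replicate 2 than in replicate 1. NOTCH2 (adjusted p = 0.0658 without hESC replicate 1) and NOTCH3 (adjusted p = 0.104 without the TPM filter, 0.131 without hESC replicate 1 and 0.0864 without HE replicate 1) lost their calls under another setting. JAG1 (adjusted p = 0.0353 with 4 libraries in the fit, 0.0317 after quantile normalization and 0.0341 with library medians set equal) passed the threshold under another setting.

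Venous and lymphatic genes were represented too. Of 10 listed, 7 passed the filter (2 through HEs alone), 6 rose and 1 fell. APLNR, the apelin receptor found on early mesoderm and venous endothelium, rose from 0.21 and 0.20 TPM to 574 and 439 TPM (log2 difference 8.71, SE 0.28, adjusted p = 2.5e-07), and NR2F2 (COUP-TFII), a factor of venous identity, from 0.97 and 0 TPM to 41.4 and 29.04 TPM (log2 difference 4.67, SE 0.42, adjusted p = 4.5e-05). FLT4, the receptor for VEGF-C, rose from 3.69 and 6.68 TPM to 385 and 314 TPM (log2 difference 5.86, SE 0.31, adjusted p = 3.2e-06), and the scavenger receptor STAB1 from 1.47 and 1.67 TPM to 303 and 252 TPM (log2 difference 6.75, SE 0.24, adjusted p = 4.1e-07). PDPN (podoplanin), a marker of lymphatic endothelium that hESCs also express, fell from 226 and 163 TPM to 3.79 and 1.46 TPM (log2 difference −5.81, SE 0.45, adjusted p = 2.1e-05), and PROX1, LYVE1 and STAB2 were below the filter. Of 10 listed ligands of vascular receptors, 8 passed the filter, 7 rose and none fell. APLN, the ligand of APLNR, rose from 3.73 and 1.56 TPM to 155 and 84.1 TPM (log2 difference 5.05, SE 0.39, adjusted p = 1.9e-05), EFNA1 from 2.06 and 2.56 TPM to 80.02 and 169 TPM (log2 difference 5.15, SE 0.42, adjusted p = 2.6e-05) and VEGFA from 17.4 and 29.6 TPM to 93.1 and 55.8 TPM (log2 difference 1.62, SE 0.30, adjusted p = 0.0028). Ligands that rose numbered 4 without hESC replicate 2.

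The blood program was switched on unevenly. Of 24 listed blood transcription factors, 20 passed the filter (9 through HEs alone), 15 rose and 1 fell (median 1.88). The factors shared by endothelium and blood had high levels. TAL1, a bHLH factor required for all blood lineages, rose from 0.20 and 0 TPM to 261 and 156 TPM (log2 difference 7.53, SE 0.27, adjusted p = 4.7e-07), its cofactor LMO2 from 1.43 and 0.69 TPM to 275 and 238 TPM (log2 difference 6.99, SE 0.20, adjusted p = 1.6e-07), and LYL1, a paralog of TAL1, as given above (log2 difference 6.40, SE 0.35, adjusted p = 3.3e-06). GFI1B, a repressor that silences endothelial genes during EHT, rose from 0.03 and 0.24 TPM to 45.7 and 24.8 TPM (log2 difference 4.94, SE 0.28, adjusted p = 4.2e-06). RUNX1, the factor that drives EHT, rose to a lower level, 44.8 and 19.4 TPM from 1.48 and 0.13 TPM (log2 difference 4.19, SE 0.47, adjusted p = 0.00017). Factors of committed blood cells were near the limit of the filter. SPI1 (PU.1) was at 6.87 and 2.41 TPM in HEs (log2 difference 2.20, SE 0.41, adjusted p = 0.003) and GATA1, listed at 0 in hESCs, at 2.78 and 1.37 TPM (adjusted p = 0.0038 from limma). MYB, a factor of definitive blood progenitors, had 2.69 and 3.52 TPM in hESCs and 6.67 and 3.53 TPM in HEs and did not pass the threshold (log2 difference 0.53, SE 0.34, adjusted p = 0.25), nor did IKZF1, NFE2 and ETV6. BCL11A, a repressor of fetal globin genes, fell from 15.9 and 8.49 TPM to 0.19 and 1.13 TPM (log2 difference −2.99, SE 0.56, adjusted p = 0.0028). RUNX1, GFI1, GFI1B, NFE2, SPI1 and GATA1 were all higher in HE replicate 1 than in replicate 2, as were NOTCH1 and JAG1 above. DLL4, NOTCH4, EFNB2, GJA4 and CLDN5 differed in the opposite direction. Over both replicates of 1 group these are differences between libraries, for which there is no test. In such bulk libraries fewer cells of a type and less RNA per cell cannot be told apart. NFE2 (adjusted p = 0.0232 after quantile normalization and 0.0136 without HE replicate 2), IKZF1 (adjusted p = 0.0472 after quantile normalization) and ETV6 (adjusted p = 0.0237 without HE replicate 2) passed the threshold under another setting.

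To place these levels, the HEs were compared with the H1-GATA2-/- HPCs of day 9 in the same fit. Of the 17920 genes, 2710 (15.1%) differed, 1691 (9.44%) higher in HEs and 1019 (5.69%) lower. The count was 1638 without HE replicate 1, 1339 without HE replicate 2, 1607 without HPC replicate 2, and 806 with only the 4 HE and HPC libraries in the fit. The filter used only hESC and HE libraries, so that genes expressed in HPCs alone were not tested and the count lower in HEs is incomplete. Among the listed blood transcription factors, 12 were lower in HEs than in HPCs and 1, GATA3, was higher. TAL1, LYL1, LMO2 and FLI1 did not differ past the threshold between HEs and HPCs: TAL1 had 261 and 156 TPM in HEs and 253 and 186 TPM in HPCs (log2 difference −0.10, SE 0.27, adjusted p = 0.85). RUNX1 was lower in HEs, at 44.8 and 19.4 TPM against 361 and 229 TPM (log2 difference −3.24, SE 0.47, adjusted p = 0.0022), as were SPI1 with 6.87 and 2.41 TPM against 80.98 and 118 TPM (log2 difference −4.25, SE 0.41, adjusted p = 0.00038) and MYB with 6.67 and 3.53 TPM against 97.7 and 101 TPM (log2 difference −4.09, SE 0.34, adjusted p = 0.00023). Endothelial genes went the other way, 22 of the 24 junction and surface genes and 14 of the 20 transcription factors being higher in HEs. SOX17, for instance, had 38.3 and 31.7 TPM in HEs and 0 and 1.19 TPM in HPCs (log2 difference 4.60, SE 0.41, adjusted p = 0.00029), and CDH5 had 614 and 608 TPM and 137 and 85.9 TPM (log2 difference 2.48, SE 0.38, adjusted p = 0.0026). With only 4 libraries in the fit RUNX1 lost its call (adjusted p = 0.066), and with a pseudocount of 0.1 CDH5 did (adjusted p = 0.096). The comparisons of HEs with hESCs and with HPCs share the HE libraries.

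**Figure D4:**
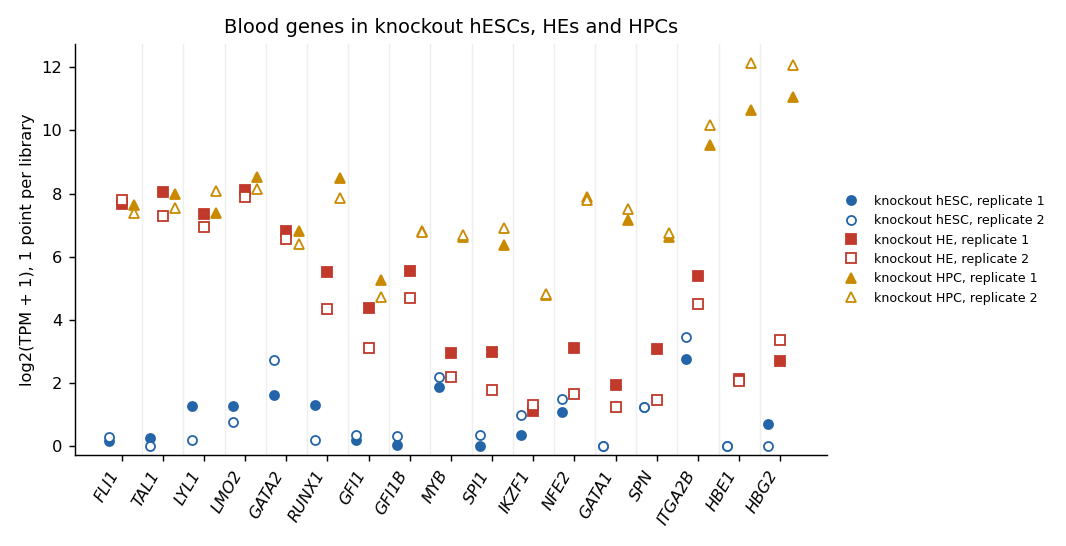
log2(TPM + 1) of 17 blood genes (x axis) in each library of H1-GATA2-/- hESCs (blue circles), HEs (red squares) and HPCs (orange triangles), filled for replicate 1 and open for replicate 2. FLI1, TAL1, LYL1, LMO2 and GATA2 lie at similar heights in HEs and HPCs, whereas MYB, SPI1, GATA1 and the globin genes HBE1 and HBG2 lie far higher in HPCs.

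Of 24 listed surface and cytoskeleton genes of blood cells, 19 passed the filter (5 through HEs alone), 11 rose, 2 fell and 13 were lower in HEs than in HPCs. VAV1, a signalling adaptor of blood cells, rose from 2.50 and 3.02 TPM to 55.2 and 45.9 TPM (log2 difference 3.78, SE 0.23, adjusted p = 6.1e-06) and the GTPase gene RAC2 from 2.07 and 5.07 TPM to 62.8 and 40.5 TPM (log2 difference 3.58, SE 0.32, adjusted p = 4.9e-05). CD44, a receptor for hyaluronan, rose from 20.6 and 11.2 TPM to 192 and 206 TPM (log2 difference 3.62, SE 0.28, adjusted p = 1.9e-05). ITGA2B (CD41), an early marker of blood commitment, rose from 5.81 and 10 TPM to 41.2 and 21.5 TPM (log2 difference 1.83, SE 0.34, adjusted p = 0.0027), and its level in HPCs was 736 and 1140.2 TPM. CORO1A and LCP1, actin-binding proteins of leukocytes, fell from 20 and 15.98 TPM and 21.4 and 5.70 TPM to 9.54 and 3.27 TPM and 2.42 and 2.22 TPM. Of 14 globin and red cell genes, 6 passed the filter (3 through HEs alone and 1 through hESCs alone), 3 rose (HBE1, HBG2 and ALAS2) and 2 fell (AHSP and the transferrin receptor TFRC). HBE1, the embryonic beta-like globin, was listed at 0 in hESCs and had 3.39 and 3.13 TPM in HEs (adjusted p = 0.013 from limma) against 1598 and 4487 TPM in HPCs. HBG1 and HBG2 are near-identical copies, as are HBA1 and HBA2, so their split is uncertain. The levels of blood markers in HEs are low beside HPCs, and the part that stray blood cells in the sort may have in them was not tested. HBG2 (adjusted p = 0.0529 without hESC replicate 2), ALAS2 (adjusted p = 0.0705 without the TPM filter, 0.0546 without hESC replicate 1 and 0.0719 without hESC replicate 2) and TFRC (adjusted p = 0.0614 without the TPM filter, 0.0738 without hESC replicate 2 and 0.0635 without HE replicate 2) lost their calls under another setting. HBE1 fell short of the threshold in 5 of 12 settings (up to an adjusted p of 0.134, without the TPM filter), AHSP in 9 of 12 settings (up to an adjusted p of 0.34, without the TPM filter), LCP1 in 7 of 12 settings (up to an adjusted p of 0.313, without hESC replicate 1) and CORO1A in 9 of 12 settings (up to an adjusted p of 0.286, without HE replicate 2).

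Genes of the primitive streak, through which mesoderm forms, were not among those expressed at day 8. Of 16 listed streak and mesoderm genes, 8 passed the filter (5 through HEs alone), 6 rose and none fell. T (brachyury) was listed at 0 in all 4 libraries, and EOMES, MIXL1, MESP1 and MESP2 were below the filter. Genes of lateral mesoderm and heart rose instead. GATA4 went from 0.34 and 0 TPM to 9.90 and 16.2 TPM (log2 difference 3.57, SE 0.52, adjusted p = 0.00076), GATA6 from 0.18 and 0 TPM to 25.8 and 20.98 TPM (log2 difference 4.48, SE 0.43, adjusted p = 6.2e-05) and BMP4, a ligand that patterns ventral mesoderm, from 12.98 and 3.02 TPM to 33.2 and 22.7 TPM (log2 difference 1.92, SE 0.60, adjusted p = 0.031). TBX20, HAND1 and HAND2 were listed at 0 in hESCs and had 6.48 and 6.16, 5.54 and 2.33 and 1.89 and 3.94 TPM in HEs (adjusted p = 0.00037, 0.0057 and 0.0064 from limma). HAND2 (adjusted p = 0.0572 without the TPM filter) lost its call under another setting. BMP4 fell short of the threshold in 6 of 12 settings (up to an adjusted p of 0.232, without hESC replicate 2).

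HOX genes, the clustered homeobox genes that encode position along the body axis, were described by cluster after their values were seen. In hESCs each HOX gene of the files was listed at 0 in both libraries except HOXB3 and HOXD10, at 0.16 TPM in replicate 2. In HEs the HOXB cluster stood out: 7 of its 9 genes in the files passed the filter, each through HEs alone, and 7 rose. HOXB9 had 93.95 and 64.9 TPM in HEs, HOXB6 63.2 and 53.8 TPM, HOXB5 55.7 and 40.4 TPM and HOXB2 44.97 and 32.1 TPM, all listed at 0 in hESCs (adjusted p = 7.1e-06, 1e-05, 3.5e-06 and 7.1e-06 from limma). HOXB4 was lower, at 8.51 and 7.49 TPM, and HOXB1 and HOXB13, at the ends of the cluster, were below the filter. In the HOXA cluster 3 of 11 genes rose, namely HOXA9 (5.22 and 5.30 TPM in HEs), HOXA10 (2.29 and 2.61 TPM) and HOXA11 (1.02 and 3.26 TPM). In HOXC 3 of 9 rose, none above 3.83 TPM, and none of the 9 HOXD genes passed the filter. In H1 HEs, HOXB9 was at 85.8 and 75.3 TPM and HOXA9 at 12 and 6.64 TPM, and none of the tested HOX genes differed between the genotypes in HEs. In H1-GATA2-/- HPCs, HOXA9 was listed at 0 in both libraries (28.5 and 13.4 TPM for HOXB9). HOXA11 (adjusted p = 0.119 without the TPM filter) lost its call under another setting.

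**Figure D5:**
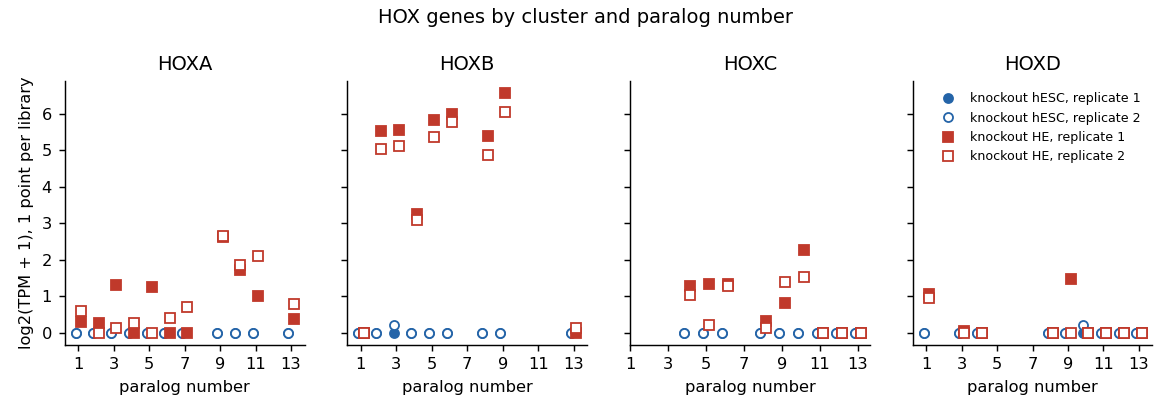
log2(TPM + 1) of HOX genes by paralog number (x axis) in the HOXA, HOXB, HOXC and HOXD clusters, hESC as blue circles and HE as red squares, filled for replicate 1 and open for replicate 2. HOXB2 to HOXB9 lie above 3 in both HE libraries, and the hESC points lie at or near 0 in each cluster.

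Markers of stromal cells rose only in part in the HEs. Of 12 listed stromal markers, 10 passed the filter (2 through HEs alone), 6 rose and 1, the chemokine CXCL12, fell. Their summed level was 970.4 and 445 TPM in hESCs, 1291 and 939.5 TPM in HEs and 1273 and 1050.5 TPM in H1 HEs, so that the groups overlapped on this sum. COL3A1, a fibrillar collagen, was listed at 0 in hESCs and had 136 and 131 TPM in HEs (adjusted p = 1.4e-05 from limma). COL1A2 rose from 38.8 and 35.7 TPM to 265 and 159 TPM (log2 difference 2.43, SE 0.43, adjusted p = 0.0021) and COL5A1 from 9.58 and 8.47 TPM to 231 and 124 TPM (log2 difference 4.09, SE 0.46, adjusted p = 0.00017). COL1A1 had 63.7 and 28.5 TPM in hESCs and 168 and 69.7 TPM in HEs and did not pass (log2 difference 1.32, SE 0.61, adjusted p = 0.12). PDGFRB, at 8.85 and 11.3 TPM and 8.24 and 2.99 TPM, did not pass either (log2 difference −0.86, SE 0.39, adjusted p = 0.11), DCN was below 1 TPM in each of the 4 libraries, and LUM had 4.65 and 5.54 TPM in HEs. The HEs had been cultured on mouse OP9 cells and were then isolated by CD34. They were sorted after staining for CD34, CD31, CD43 and TRA-1-85, a marker of human cells. The part of mouse reads or of other cells in these levels was not tested. Of the 10 neural and endoderm markers 4 passed the filter (2 through HEs alone). AFP fell from 10.1 and 13.2 TPM to 0.64 and 4.26 TPM and APOA1 rose from 0.78 and 0.38 TPM to 2.61 and 14.6 TPM. The other 2 tested markers did not pass the threshold. AFP fell short of the threshold in 5 of 12 settings (up to an adjusted p of 0.225, without HE replicate 1) and APOA1 in 5 of 12 settings (up to an adjusted p of 0.209, without HE replicate 2). PDGFRB (adjusted p = 0.0168 without HE replicate 1) passed the threshold under another setting.

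Matrix and adhesion genes changed in both directions. Of 21 basement membrane and integrin genes, all passed the filter (1 through hESCs alone), 12 rose and 5 fell (median 0.85). The collagen IV genes COL4A1 and COL4A2 rose from 35.1 and 31.8 TPM and 39.7 and 46.3 TPM to 504 and 544 TPM and 651 and 623 TPM (log2 differences 3.93 and 3.86, adjusted p = 1.2e-05 and 2.3e-05 from limma), and NID2 (nidogen) from 5.92 and 4.57 TPM to 124 and 143 TPM (log2 difference 4.44, SE 0.27, adjusted p = 6.3e-06). ITGA5, the fibronectin receptor subunit, rose from 15.03 and 12.3 TPM to 350.4 and 309 TPM (log2 difference 4.50, SE 0.32, adjusted p = 1.3e-05), beside the rise of FN1. Beside LAMA3, the falls held 4 genes. ITGA6, the laminin receptor subunit, fell from 64.8 and 64.2 TPM to 20.1 and 16.6 TPM (log2 difference −1.77, SE 0.39, adjusted p = 0.0068), ITGB5 from 415 and 254 TPM to 45.4 and 72.2 TPM (log2 difference −2.48, SE 0.45, adjusted p = 0.0025), and the laminin chains LAMA1 and LAMA5, which hESCs lay down, from 24.6 and 25.9 TPM and 87.6 and 128 TPM to 9.81 and 8.91 TPM and 51.8 and 31.7 TPM (adjusted p = 0.011 and 0.013 from limma). A few families were picked by symbol after the values were seen. In the plexins, receptors of semaphorins, 5 of 9 rose and 1 fell (2 passed the filter through HEs alone), led in level by the endothelial PLXND1 from 44.02 and 46.5 TPM to 1384 and 1415 TPM (log2 difference 4.92, SE 0.21, adjusted p = 9.6e-07). In the S100A calcium-binding proteins 8 of 15 rose and none fell (10 passed the filter, 2 through HEs alone), and in the GIMAP family of immune GTPases, also found in endothelium, 6 of 7 rose (6 passed the filter through HEs alone), GIMAP8 for instance from 0.09 and 0 TPM to 23.97 and 22.6 TPM. ITGA6 (adjusted p = 0.0641 without the TPM filter, 0.0659 without hESC replicate 1 and 0.0617 without hESC replicate 2), ITGB5 (adjusted p = 0.051 without hESC replicate 1), LAMA1 (adjusted p = 0.0541 without hESC replicate 1, 0.06 without hESC replicate 2 and 0.0607 without HE replicate 2) and LAMA5 (adjusted p = 0.113 without the TPM filter, 0.129 without hESC replicate 2 and 0.0966 without HE replicate 2) lost their calls under another setting. LAMA3 fell short of the threshold in 8 of 12 settings (up to an adjusted p of 0.291, without hESC replicate 1). Plexins that rose numbered 3 without hESC replicate 1, 3 without hESC replicate 2, 3 without HE replicate 1 and 3 without HE replicate 2. S100A genes that rose numbered 5 without hESC replicate 1 and 5 without HE replicate 2.

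Genes of the cell cycle differed in part. Of 24 proliferation genes, all of which passed the filter, 3 rose (CCND1, CCND3 and TYMS), 10 fell and 11 did not pass the threshold (median −0.66). The replication helicase genes MCM2, MCM3, MCM4, MCM5, MCM6 and MCM7 fell together, for example MCM4 from 277 and 261 TPM to 115 and 75.3 TPM (log2 difference −1.52, SE 0.22, adjusted p = 0.00066), and so did PCNA, the polymerase clamp, from 354 and 318 TPM to 142 and 139 TPM (log2 difference −1.25, SE 0.22, adjusted p = 0.002). MKI67, the gene of the Ki-67 antigen, had 40.9 and 29.5 TPM in hESCs and 26.4 and 38.8 TPM in HEs (log2 difference −0.11, SE 0.32, adjusted p = 0.82), and the mitotic genes TOP2A, CDK1, PLK1 and AURKB did not pass either. TOP2A was at 94.9 and 141 TPM in hESCs and 46.7 and 113 TPM in HEs, and the groups overlapped. CCND1 (cyclin D1) rose from 61.9 and 35.7 TPM to 556 and 338 TPM (log2 difference 3.18, SE 0.49, adjusted p = 0.00099), while CCNE1 (cyclin E1) fell from 50.9 and 33.1 TPM to 16.4 and 9.39 TPM (log2 difference −1.64, SE 0.32, adjusted p = 0.0036). Of 12 cell cycle inhibitors, 9 passed the filter, 7 rose and none fell (median 1.39). CDKN1C (p57) rose from 7.24 and 5.23 TPM to 77.9 and 62.1 TPM (log2 difference 3.30, SE 0.32, adjusted p = 7e-05), RB1 from 8 and 10.9 TPM to 38.7 and 50.8 TPM (log2 difference 2.13, SE 0.31, adjusted p = 0.0007) and CDKN1B (p27) from 9.78 and 13.1 TPM to 31.9 and 31.1 TPM (log2 difference 1.40, SE 0.21, adjusted p = 0.00086). MCM2 (adjusted p = 0.0905 without the TPM filter, 0.118 without hESC replicate 1 and 0.0938 without HE replicate 2), MCM5 (adjusted p = 0.101 without the TPM filter, 0.122 without hESC replicate 1 and 0.0822 without HE replicate 2) and CCND3 (adjusted p = 0.0672 without the TPM filter, 0.0505 without hESC replicate 1, 0.0759 without hESC replicate 2 and 0.0668 without HE replicate 1) lost their calls under another setting. MCM7 fell short of the threshold in 8 of 12 settings (up to an adjusted p of 0.183, without hESC replicate 1). Proliferation genes that fell numbered 5 without hESC replicate 1.

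Of 10 enzymes of DNA methylation and demethylation, 9 passed the filter, 1 rose and 2 fell (DNMT3B and the glycosylase TDG). DNMT3B, the de novo methyltransferase of pluripotent cells, fell from 795 and 518 TPM to 62.9 and 60.6 TPM (log2 difference −3.36, SE 0.21, adjusted p = 7e-06). DNMT1, which copies methylation at replication, was at 121 and 116 TPM and 131 and 106 TPM (log2 difference 0.00, SE 0.23, adjusted p = 1) and DNMT3A at 79.4 and 59.8 TPM and 72.03 and 62.1 TPM (log2 difference −0.04, SE 0.21, adjusted p = 0.9), and the groups overlapped for both. TET2, a demethylation enzyme important in blood cells, rose from 0.87 and 0.79 TPM to 6.90 and 6.28 TPM (log2 difference 2.05, SE 0.29, adjusted p = 0.00059). Paralogs of an RNA polymerase III subunit, picked after the values were seen, went in opposite directions: POLR3G fell from 82.97 and 93.9 TPM to 2.69 and 1.04 TPM (log2 difference −5.02, SE 0.42, adjusted p = 3.3e-05), and POLR3GL rose from 3.85 and 8.37 TPM to 23.7 and 23.3 TPM (log2 difference 1.86, SE 0.32, adjusted p = 0.0019). Over the 30 RNA polymerase subunit genes in the files, 2 rose, 12 fell and 16 did not pass (median −0.58). TDG (adjusted p = 0.066 without the TPM filter, 0.095 without hESC replicate 1, 0.0571 without hESC replicate 2 and 0.094 without HE replicate 2) lost its call under another setting. Polymerase genes that fell numbered 5 without hESC replicate 1, 6 without hESC replicate 2 and 5 without HE replicate 1.

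Of 20 listed glycolysis genes, all passed the filter, 15 rose and 2 fell, with a median of 0.92. LDHA, which makes lactate, rose from 451 and 733 TPM to 2204 and 2595 TPM (log2 difference 2.05, SE 0.25, adjusted p = 0.00025), while LDHB, the subunit of the enzyme form that favours pyruvate, fell from 1438 and 1699.6 TPM to 744 and 789 TPM (log2 difference −1.03, SE 0.14, adjusted p = 0.00046). PGK1 rose from 814 and 972 TPM to 2766 and 3432 TPM (log2 difference 1.79, SE 0.20, adjusted p = 0.00014), ENO1 from 2255 and 2112 TPM to 5243 and 6171 TPM (log2 difference 1.38, SE 0.16, adjusted p = 0.00021), and the liver-type phosphofructokinase PFKL from 70.99 and 67.7 TPM to 221 and 218 TPM (log2 difference 1.65, SE 0.15, adjusted p = 5.4e-05), whereas the muscle type PFKM fell from 65.5 and 80.8 TPM to 43.9 and 43.7 TPM (log2 difference −0.72, SE 0.21, adjusted p = 0.026). The protein-coding genes of the mitochondrial genome, a family chosen after its values were seen, held 81059 and 75129 TPM in sum in hESCs and 50126 and 48879 in HEs, and 8 of 13 fell (median −0.62). Cytosolic ribosomal protein genes showed 3 rises and 5 falls among 81 (median 0.06). PFKM fell short of the threshold in 6 of 12 settings (up to an adjusted p of 0.147, without hESC replicate 2). Mitochondrial genes that fell numbered 5 without hESC replicate 2.

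Genes of antigen presentation fell for the most part. Of 16 listed, 15 passed the filter (2 through hESCs alone), 9 fell and 2 rose (median −1.11). The class I gene HLA-C fell from 352 and 276 TPM to 79.6 and 85.05 TPM (log2 difference −1.91, SE 0.22, adjusted p = 0.0002). TAP1, the peptide transporter, and PSMB8, a subunit of the immunoproteasome, had 10.9 and 12.2 TPM and 19.1 and 23.4 TPM in hESCs and were listed at 0 in both HE libraries (adjusted p = 3.8e-05 and 2.1e-05 from limma). HLA-E, a ligand of inhibitory receptors on natural killer cells, rose from 17.4 and 23.4 TPM to 259 and 237 TPM (log2 difference 3.55, SE 0.18, adjusted p = 2.3e-06), and B2M, the shared light chain, from 112 and 132 TPM to 169 and 219 TPM (log2 difference 0.65, SE 0.17, adjusted p = 0.013). HLA genes are similar to each other in sequence, and reads could be split between them. B2M (adjusted p = 0.0649 without the TPM filter, 0.0507 without the trend in eBayes, 0.0913 without hESC replicate 1 and 0.0904 without HE replicate 2) lost its call under another setting.

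Most of the listed immediate early genes, which respond within minutes to handling and signals, rose in the sorted HEs, and no heat shock gene of the list did. Of 17 listed genes of both kinds, 16 passed the filter, 9 rose, all of them immediate early genes, and 4 fell. JUN rose from 10.5 and 3.56 TPM to 97.2 and 65.8 TPM (log2 difference 3.49, SE 0.39, adjusted p = 0.00017), EGR1 from 0.92 and 2.22 TPM to 38.8 and 14.9 TPM (log2 difference 3.34, SE 0.49, adjusted p = 0.00073) and FOS from 14.5 and 9.29 TPM to 28.6 and 54.9 TPM (log2 difference 1.69, SE 0.32, adjusted p = 0.0032). FOS was at 116 and 143 TPM in H1 HEs and 185 and 227 TPM in H1-GATA2-/- HPCs. The heat shock genes HSPA1B, HSPH1 and HSP90AA1 fell, the last from 687 and 614 TPM to 448 and 325 TPM (log2 difference −0.77, SE 0.22, adjusted p = 0.022), and of the immediate early genes IER3 fell, ATF3 did not pass the threshold and EGR3 was below the filter. The hESCs were digested from culture, and the HEs were dissociated from the OP9 cultures and then sorted. An effect of the sort and an effect of differentiation on these genes therefore cannot be told apart. FOS (adjusted p = 0.0511 without hESC replicate 2), HSPA1B (adjusted p = 0.0822 without the TPM filter, 0.133 without hESC replicate 1 and 0.109 without HE replicate 1) and HSPH1 (adjusted p = 0.0556 without the TPM filter and 0.0737 without hESC replicate 1) lost their calls under another setting. HSP90AA1 fell short of the threshold in 5 of 12 settings (up to an adjusted p of 0.146, without hESC replicate 1) and IER3 in 8 of 12 settings (up to an adjusted p of 0.264, with a pseudocount of 0.1).

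Of 15 imprinted genes, which are expressed from 1 parental allele, 12 passed the filter (1 through HEs alone), 7 rose and 4 fell. IGF2, a fetal growth factor that shares its locus with H19, rose from 0.32 and 0.57 TPM to 59.3 and 60.9 TPM (log2 difference 5.41, SE 0.26, adjusted p = 1.9e-06). DLK1, a Notch-like surface protein, rose from 2.19 and 0.82 TPM to 54.3 and 51.1 TPM (log2 difference 4.48, SE 0.38, adjusted p = 3.2e-05), and PLAGL1, a zinc finger factor, from 0.72 and 1.13 TPM to 74.3 and 64.7 TPM (log2 difference 5.20, SE 0.21, adjusted p = 7.4e-07). The maternally expressed MEG3 of the DLK1 locus stayed below the filter, at 0.14 and 0 TPM and 0.13 and 0.19 TPM. The genes that fell were PEG10, SGCE, SNRPN and MEST. PEG10 fell from 61.8 and 65.9 TPM to 4 and 6.50 TPM (log2 difference −3.40, SE 0.33, adjusted p = 7e-05), its neighbour SGCE from 21.4 and 14.9 TPM to 4.49 and 2.51 TPM (log2 difference −2.11, SE 0.36, adjusted p = 0.0017) and SNRPN from 246 and 224 TPM to 82.5 and 40.1 TPM (log2 difference −2.01, SE 0.33, adjusted p = 0.0014). PEG3 was listed at 0 in all 4 libraries. Gene-level values do not show which allele was read.

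By the rule for named genes, the 15 largest rises and the 15 largest falls among protein-coding genes whose direction was the same in each of the 4 pairs of an HE and an hESC library are also given. Beside the genes already described, the rises held HAPLN1, a link protein of hyaluronan, from 3.36 and 0.99 TPM to 1415 and 1400.5 TPM (log2 difference 8.90, SE 0.49, adjusted p = 3.7e-06), GNG11, a G protein subunit, from 8.27 and 4.70 TPM to 1025 and 1331 TPM (log2 difference 7.33, SE 0.31, adjusted p = 9.6e-07), and TM4SF1, a surface tetraspan of endothelium, from 0.52 and 0 TPM to 366 and 289 TPM (log2 difference 8.05, SE 0.43, adjusted p = 3.2e-06). SOST, the WNT antagonist sclerostin known from osteocytes, and HOPX, a homeodomain protein without DNA binding, were listed at 0 in hESCs and had 564 and 379.8 TPM and 277 and 292 TPM in HEs (adjusted p = 3.5e-06 and 1e-07 from limma). The adhesion molecule ICAM2 rose from 0 and 1.32 TPM to 259.8 and 250.1 TPM, F2RL2, a protease-activated receptor, from 0.29 and 0.41 TPM to 259 and 212 TPM, and FCN3, a ficolin of the lectin complement pathway, from 0 and 0.34 TPM to 142 and 220.1 TPM. SOST was at 384 and 339 TPM in H1 HEs as well. The falls held HHLA1 (916 and 1156 TPM to 1.16 and 0.91 TPM), SCGB3A2, a secretoglobin (1756 and 2001 TPM to 5.85 and 4.22 TPM), and GABRP, a GABA receptor subunit (1422 and 1738 TPM to 3.76 and 6.92 TPM), each at close to or above 1000 TPM in hESCs. ABHD12B, CRABP1, CALB1, DMKN and LINC00371, which the annotation lists as protein-coding, fell to below 4 TPM from levels above 200 TPM, and NMRK2 from 153 and 86.4 TPM to a listed 0 in both HE libraries.

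The same levels were set against those of H1 HEs. Between H1-GATA2-/- and H1 HEs, 7 of 17920 genes (0.0391%) differed, 6 (0.0335%) higher and 1 (0.00558%) lower in the knockout, and none of the 414 listed genes was among them. No gene passed the threshold in limma without H1-GATA2-/- HE replicate 2, without H1 HE replicate 2 or with only the 4 HE libraries in the fit, where 909, 949 and 1144 genes had an unadjusted p under 0.05, and 2 passed without H1 HE replicate 1. The gene that was lower, named after its value was seen, was PF4, a chemokine of platelets, with 3.66 and 4.70 TPM against 37.3 and 32.1 TPM (log2 difference −2.79, SE 0.27, adjusted p = 0.022). Its call was lost in 8 of 14 other settings, among them each setting without 1 of the HE libraries (adjusted p from limma of 0.054 to 0.341 in the 8). The 6 that were higher were short RNA genes or their pseudogenes, each listed at 0 in both H1 HE libraries. They had 3.36 to 25.92 TPM in the H1-GATA2-/- HE libraries and were listed at 0 in the HPC libraries of both genotypes. At so short a length a few reads make a TPM of this size, so these calls may rest on a few reads. The filter used H1-GATA2-/- libraries alone, so genes expressed in H1 HEs only were not tested. Of the listed blood transcription factors, RUNX1, SPI1 and GATA1 are given with their values, although none passed the threshold. RUNX1 had 44.8 and 19.4 TPM against 77.9 and 65.9 TPM (log2 difference −1.25, SE 0.47, adjusted p = 0.87). SPI1 had 6.87 and 2.41 TPM against 35.8 and 22.2 TPM (log2 difference −2.50, SE 0.41, adjusted p = 0.25). GATA1 had 2.78 and 1.37 TPM against 18.4 and 12.1 TPM (log2 difference −2.41, SE 0.31, adjusted p = 0.053). With 2 libraries a group, values that lie apart in this way are not evidence of a difference, and their share over all tested genes is not given here. A p that misses the threshold with 2 libraries a group does not show that the levels are equal.

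MicroRNA genes could not be followed. Of 14 stem cell microRNA genes, 10 were listed at 0 in all 4 libraries, and of 16 endothelial and blood microRNA genes 14 were. MIR302C, of the cluster typical of hESCs, had 9.98 and 28.9 TPM in hESCs and 12.7 and 0 TPM in HEs (log2 difference −2.29, SE 1.00, adjusted p = 0.1). At the length of a hairpin a few reads make a TPM of this size, and the values do not measure mature microRNAs. MIR302C (adjusted p = 0.00176 without HE replicate 1) passed the threshold under another setting.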

How the data were processed

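Short single-end reads of TruSeq libraries were trimmed by the authors with Trimmomatic and mapped with Bowtie to hg19, and the submitters' processing notes also name RSEM. The deposited values are TPM per Ensembl gene, rounded to 2 decimals, 1 column per library. TPM is a share of each library, so a rise of some genes lowers the others, and it keeps no read depth. Groups were taken from the labels. For the results below, log2(TPM + 1) of 10 libraries in 5 groups was fitted with the limma package (3.58.1, under R 4.3.3) by lmFit, contrasts.fit and eBayes with trend, for genes that reached 1 TPM in 2 or more of the 4 H1-GATA2-/- HE and hESC libraries. P-values were adjusted by Benjamini and Hochberg over all 17920 genes, with a threshold of 0.05, two-sided. On simulated data with 200 genes changed by 2 on the log2 scale, 93.5% were called. The changed genes were drawn only from those with a higher mean level, so this share does not cover genes near 1 TPM. Genes named were those of 25 lists, the 15 largest rises and 15 largest falls among protein-coding genes, and GATA2; a few members of the lists are counted but not reported by name here. The lists, the rule and the comparison were chosen with earlier results of these data known. Alternatives changed the pseudocount, the filter, the scaling, the libraries fitted, the trend and the replicate block.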

Additional observations from a re-analysis of the deposited data

How the results depend on the processing

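Over all settings the count of genes that differed between HEs and hESCs lay between 4594 and 7471. Leaving out 1 library gave 4594 to 5075 genes (2168 to 2445 higher, 2422 to 2907 lower), where the group left with 1 library was assumed to vary like the others. No filter on low values gave 4678, of which 4227 were shared with the 6981 reported. For HEs against HPCs the 2710 genes became 1511 (898 higher and 613 lower) without a filter and 806 (590 higher and 216 lower) with only the 4 libraries in the fit, and lay at 1339 to 2221 (903 to 1408 higher, 436 to 813 lower) with 1 library left out. For H1-GATA2-/- against H1 HEs the 7 genes became 11 (9 higher and 2 lower) with a pseudocount of 0.1, 87 (50 higher and 37 lower) without a filter, 4 (1 higher and 3 lower) with the filter over 10 libraries, 2 (2 higher and 0 lower) with library medians set equal, 0 (0 higher and 0 lower) with 4 libraries, and 0 to 7 (0 to 7 higher, 0 to 3 lower) with 1 library left out. The HPC and H1 HE libraries were left out of their own comparisons as an addition chosen after seeing the data. The cause of these shifts was not tested. Of 217 named genes, 51 changed their side of the threshold or their sign under at least 1 setting, and those that lost a call are given beside their values. Genes whose sign changed had not passed the threshold. Their log2 differences with 1 library left out ran from −0.44 to 1.15 for ATF3, −0.38 to 0.046 for CD9, −0.15 to 0.15 for DNMT1, −0.24 to 0.16 for DNMT3A, −2.20 to 1.29 for HBA2, −0.38 to 0.16 for MKI67, −0.40 to 0.16 for PLK1 and −0.12 to 0.15 for THY1, and for TAL1 against HPCs from −0.48 to 0.27. After quantile normalization the difference was −0.0011 for DNMT1 and −0.012 for THY1, and with medians set equal it was −0.0059 for DNMT1.

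The replicate numbers were not used to pair the libraries in the main fit. The correlation of replicate 2 minus replicate 1 over genes was 0.011 between hESCs and HEs. Over the 10 pairs of groups it was highest between H1 and H1-GATA2-/- HEs (0.148) and between H1 and H1-GATA2-/- HPCs (0.0753). For the other pairs it was 0.0212 or less. With the replicate number as a block 7332 genes differed between HEs and hESCs, 3016 between HEs and HPCs and 2 (1 higher and 1 lower) between the genotypes in HEs. Of the named genes, it brought CDH2, COL1A1, JAG1 and LIN28B past the threshold (adjusted p = 0.0299, 0.00408, 0.0478 and 0.0114) and took CORO1A and IER3 out (adjusted p = 0.0546 and 0.0549). The column names of replicate 2 of all HEs and HPCs share a numeric suffix, whose meaning is not given in the sources used here. With TPM alone depth is unknown, so the number of reads behind genes near 1 TPM is not known.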
